A study of Homo sapiens with 10 samples.

Results

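TXNIP, the thioredoxin-interacting protein, and 6 genes tied to it were followed on 10 arrays of human lung cancer cells that differ in their response to discodermolide, a natural product that stabilises microtubules. The 7 genes were TXNIP, its fellow alpha-arrestins ARRDC2, ARRDC3 and ARRDC4, its binding partner TXN, and the transcription factors MLX and MLXIPL, out of 18279 genes measured. They were taken by gene name, and TXNIP was picked because its level was high and uneven in AD32 cells, so its AD32 values are a description with no test. For the same reason the values of all 7 genes in AD32 against A549 in DMSO are given with no p, and their calls in the fit over all genes only as a count.

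AD32 4E-BP1, 1 array in 0.01% DMSO, is an AD32 derivative by its name and is labelled sensitive. AD32, 3 arrays, is labelled resistant and was kept in 32 nM discodermolide. A549, the lung adenocarcinoma line, gave 2 arrays after 32 nM discodermolide, labelled senescent, and 4 arrays in 0.01% DMSO, labelled sensitive. AD32 was measured in the drug alone and AD32 4E-BP1 in DMSO alone, so cell line and exposure cannot be told apart in comparisons between them. Nor can they be told apart in AD32 against A549 in DMSO, so every difference in that comparison may belong to either. The labels name biological replicates without saying how they were grown apart, so p-values measure the spread between these samples. Each array measures bulk RNA, in which fewer cells of a type and less RNA per cell cannot be told apart.

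TXNIP binds reduced thioredoxin and also acts as an adaptor that takes glucose transporters off the cell surface. Its transcription is driven by MondoA (MLXIP) and ChREBP (MLXIPL), which pair with MLX and read the level of glucose phosphates at paired E-box-like elements. Other alpha-arrestins link membrane proteins to ubiquitin ligases of the NEDD4 family, and ARRDC4 is the member closest to TXNIP in sequence and in its effect on glucose uptake.

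The promoters of TXNIP and ARRDC4 are shown because both genes are known targets of these glucose-sensing factors and yet differed on these arrays. The 250 bases before each RefSeq start are given 5′ to 3′ on the gene's strand, in GRCh38.p14, for TXNIP at chr1:145996580-145996829 (minus strand) and for ARRDC4 at chr15:97960453-97960702 (plus strand). Capitals mark paired CACGNG elements in TXNIP, the E-box CACGTG in ARRDC4, and in both genes each CCAAT box, which reads ATTGG where it lies on the opposite strand.
TXNIP: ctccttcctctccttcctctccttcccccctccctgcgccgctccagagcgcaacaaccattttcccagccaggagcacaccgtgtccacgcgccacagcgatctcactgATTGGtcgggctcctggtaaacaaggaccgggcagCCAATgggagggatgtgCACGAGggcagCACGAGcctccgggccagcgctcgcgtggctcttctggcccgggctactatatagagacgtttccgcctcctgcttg
ARRDC4: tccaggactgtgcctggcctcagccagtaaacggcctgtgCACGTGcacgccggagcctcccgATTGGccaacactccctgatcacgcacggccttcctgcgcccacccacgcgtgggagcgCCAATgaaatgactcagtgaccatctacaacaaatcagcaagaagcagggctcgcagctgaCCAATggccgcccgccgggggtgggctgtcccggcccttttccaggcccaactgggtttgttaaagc

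All 7 genes matched the RefSeq promoter table, and each window from 250 bases before to 50 bases after the start was searched on both strands. TXNIP carried 2 copies of the E-box-like CACGNG with 5 bases between them, the first of which began 88 bases before its start. That paired pattern was in 20 of 35116 promoter windows (0.057%), and among the 7 genes only TXNIP had it. A second TXNIP window further into the gene held none. CACGTG, the palindromic E-box, began 210 bases before the start of ARRDC4 and 50 before that of MLX, against 7.26% of all windows. CCAAT was in windows of 5 of the 7 genes, with 2 copies in TXNIP and 3 in ARRDC4, and in 34.6% of all windows. TXNIP, ARRDC2 and ARRDC3 had 2 windows each, so that count by gene cannot be set against the share of windows. A match describes letters only. It is not evidence of binding in these cells.

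All levels below are log2 signals as deposited, so a difference of 1 is a 2-fold ratio of signal. Array medians lay between 6.50 and 6.63 and lower quartiles between 4.77 and 4.94, and signal above background was not shown for levels near those lower quartiles. Keratins KRT8 and KRT18 lay between 12.67 and 14.002 on every array, EPCAM was low at 3.30 to 3.87, and the leukocyte gene PTPRC did not pass 3.20. AKR1B10, one of the A549 line markers, was uneven, from 8.39 to 12.65 with a median of 12.30 over the arrays. In AD32 against A549 in DMSO, where 5.72% of all genes were called, limma called 2 of 10 epithelial and A549 line markers higher (CDH1 by 1.11 and CLDN1 by 1.10). It called 2 lower, ALDH1A1 by 0.94 and AKR1C1 by 0.90. COL3A1 fell by 2.08 among 8 fibroblast markers, and 0 of 9 leukocyte and endothelial genes were called, with array means between 4.99 and 5.47. EIF4EBP1, which names the derived line, stood at 11.61 on the AD32 4E-BP1 array and averaged 8.52 in AD32 (SD 0.48, n = 3). AD32 replicate 3 and A549 DMSO replicate 1 stood apart from their groups in mitotic genes. The mean of 20 G2/M genes was 5.28, 6.31 and 9.77 in AD32 replicates 1, 2 and 3, and 6.84, 9.99, 10.10 and 10.06 in A549 DMSO replicates 1 to 4. Where these 2 arrays decide a value below, it is also given without them.

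TXNIP showed the widest spread of the 7 genes. Its level was 5.23 on the AD32 4E-BP1 array, 10.88, 11.39 and 7.14 on AD32 replicates 1, 2 and 3, 5.93 and 6.36 in A549 in discodermolide, and 5.61, 5.002, 4.92 and 4.90 in A549 in DMSO. All 3 AD32 arrays were above every other array, and AD32 replicate 3 was far below the other AD32 arrays. The highest AD32 level was 19.0-fold the lowest, and the AD32 SD of 2.32 was the 49th largest of 18279 genes, whose median SD in AD32 was 0.24. The AD32 mean was 9.81 ± 2.32 (SD, n = 3), against 6.15 ± 0.30 in A549 in discodermolide (n = 2) and 5.11 ± 0.34 in A549 in DMSO (n = 4). The order of the group means was AD32, A549 in discodermolide, AD32 4E-BP1 and A549 in DMSO, and the AD32 4E-BP1 array lay within the range of A549 in DMSO.

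**Figure D1:**
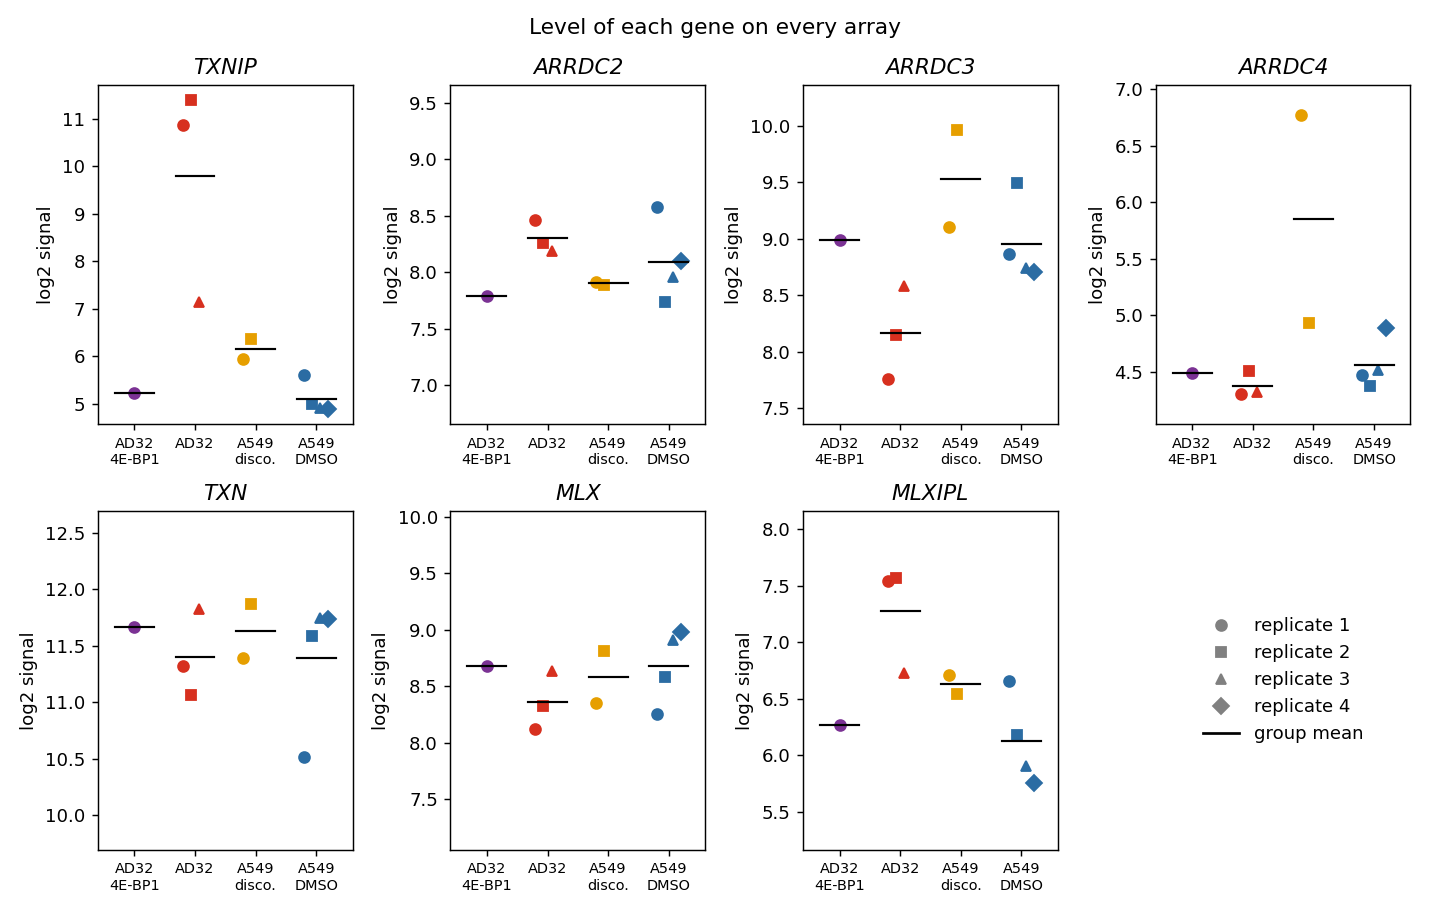
Log2 signal (vertical axis) of the 7 genes on each array, grouped along the horizontal axis with AD32 4E-BP1 first and A549 in DMSO last; points are arrays and bars are group means. TXNIP lies at 10.88, 11.39 and 7.14 in AD32, against 4.90 to 5.61 in A549 in DMSO, while TXN stays between 10.52 and 11.87 on all arrays.

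Averaged over AD32, TXNIP signal was 26.0-fold that of A549 in DMSO, a difference of 4.70. The A549 DMSO arrays lay close to the lower quartile of all probe sets, so this fold and those below are ratios of signal and need not equal ratios of transcript. That value turned on AD32 replicate 3: it was 65.3-fold without this array, 17.9-fold without replicate 1 and 15.0-fold without replicate 2. Against A549 in discodermolide the AD32 difference was 3.66, or 12.6-fold, and 31.8-fold without AD32 replicate 3. The AD32 4E-BP1 array was 4.58 below the AD32 mean, and 5.91 below it without AD32 replicate 3. These contrasts share the AD32 arrays on which TXNIP was chosen, and they share arrays with each other.

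TXNIP levels are given here beside the G2/M mean of the same array. AD32 replicates 1 and 2, with G2/M means of 5.28 and 6.31, below that of every A549 array, had TXNIP at 10.88 and 11.39. A549 arrays with low G2/M means, both discodermolide arrays (6.72 and 6.89) and A549 DMSO replicate 1 (6.84), had TXNIP at 5.93, 6.36 and 5.61. Among arrays with G2/M means from 9.77 to 10.10, TXNIP was 7.14 in AD32 replicate 3, against 5.23 in AD32 4E-BP1 and 4.90 to 5.002 in A549 DMSO replicates 2 to 4. In AD32 the array with the high G2/M mean had the lowest TXNIP level, and in A549 in DMSO the array with the low G2/M mean had the highest. The part of mitotic state in the TXNIP level was not tested.

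**Figure D2:**
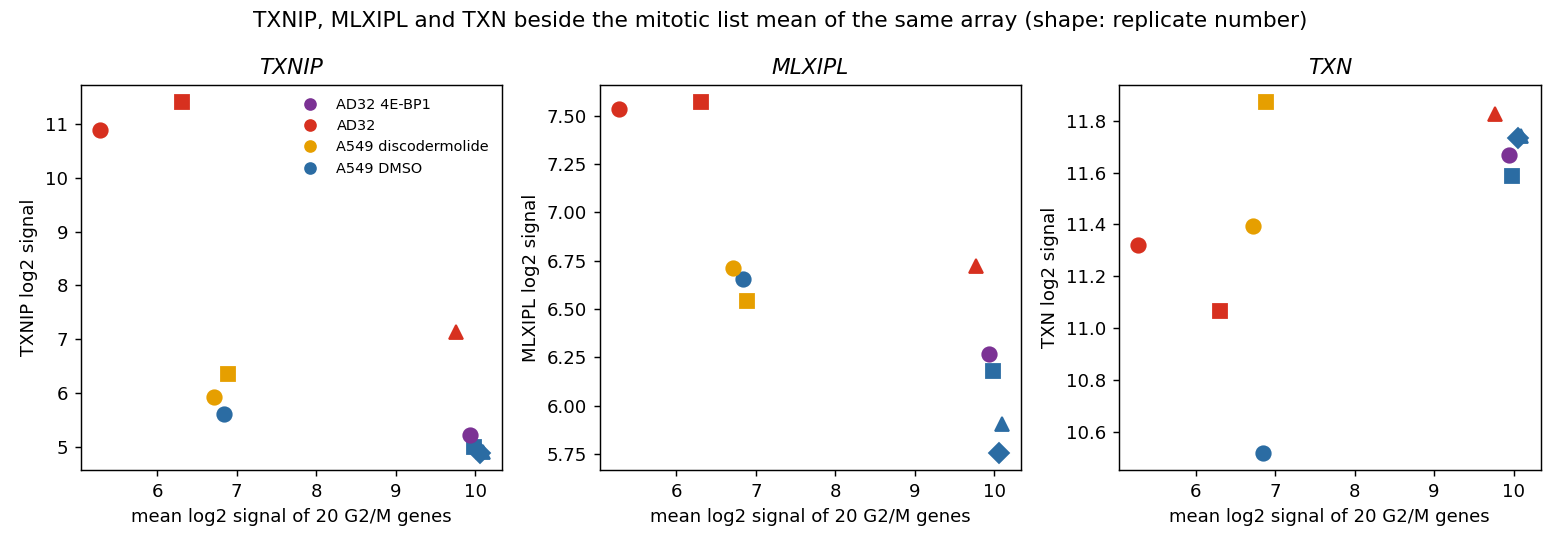
Log2 signal of TXNIP, MLXIPL and TXN (vertical axes) against the mean log2 signal of 20 G2/M genes (horizontal axis), 1 point per array, marked by group. AD32 arrays with G2/M means of 5.28 and 6.31 have TXNIP at 10.88 and 11.39. A549 arrays with G2/M means of 6.72 to 6.89 have it at 5.61 to 6.36.

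In A549 cells, discodermolide gave no called change in TXNIP. Both treated arrays were above all 4 DMSO arrays, and the mean was 1.04 higher (SE 0.97), or 2.05-fold, with a limma adjusted p of 0.787. The exact two-sided permutation p for 2 arrays against 4 was 0.133, the smallest this design allows. The SE pooled over the groups carries the AD32 spread: without AD32 replicate 3 it was 0.25, with an adjusted p of 0.124. With A549 DMSO replicate 1 left out as well, the difference was 1.21 (SE 0.19) with a limma adjusted p of 0.00233. This alternative was added after seeing the data and removes the DMSO array with the highest TXNIP level, so 0.00233 is no support for a difference. Of all genes, 0.372% were called in this comparison (68 of 18279), and 0 of the 7 genes were. Treated and DMSO arrays did not overlap for 2 of the 7 genes, TXNIP and ARRDC4, against 22.9% of all genes.

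ARRDC4, the closest relative of TXNIP, did not share its AD32 level. It read 4.49 on AD32 4E-BP1, 4.31, 4.51 and 4.32 in AD32, 6.77 and 4.93 in A549 in discodermolide, and 4.47, 4.37, 4.52 and 4.89 in A549 in DMSO. Only A549 discodermolide replicate 1 was clearly above the lower quartile of the arrays. The AD32 mean was 0.18 below that of A549 in DMSO, with overlapping arrays. In A549, discodermolide arrays averaged 1.29 above DMSO (SE 0.41, limma adjusted p = 0.283), and the pair of treated arrays differed by 1.84. That difference was 2.21 without discodermolide replicate 2 and 0.37 without replicate 1, each resting on 1 treated array. AD32 was 1.47 below A549 in discodermolide (SE 0.43, limma adjusted p = 0.112), and 2.39 below it without discodermolide replicate 2, which leaves 1 treated array. ARRDC4 had the 13th largest SD between the 2 discodermolide arrays among all genes.

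ARRDC3, which has been tied to the traffic and turnover of adrenergic receptors and integrins, was lowest in AD32. Its level was 8.99 on AD32 4E-BP1, 7.76, 8.15 and 8.58 in AD32, 9.10 and 9.96 in A549 in discodermolide, and 8.86, 9.49, 8.75 and 8.71 in A549 in DMSO. Every AD32 array lay below every other array, so ARRDC3 ran opposite to TXNIP in AD32. The AD32 mean was 0.79 below A549 in DMSO and 1.37 below A549 in discodermolide (SE 0.34). The second difference had a limma adjusted p of 0.0655, and of 0.0353 without AD32 replicate 3, where the difference was -1.58. That removes the AD32 array with the highest ARRDC3 level, so 0.0353 is no support for a difference. In A549, discodermolide arrays averaged 0.58 above DMSO (SE 0.32, limma adjusted p = 0.564), with overlapping arrays.

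ARRDC2, another adaptor of the family, varied little. It measured 7.79 on AD32 4E-BP1, 8.46, 8.26 and 8.18 in AD32, 7.92 and 7.89 in A549 in discodermolide, and 8.58, 7.73, 7.96 and 8.10 in A549 in DMSO. AD32 was above A549 in discodermolide on every array by a mean of 0.40 (SE 0.23, limma adjusted p = 0.501) and overlapped A549 in DMSO. ARRDC1, an alpha-arrestin known for the budding of vesicles at the plasma membrane, read 7.25 on AD32 4E-BP1, 8.60, 7.59 and 7.90 in AD32, 7.31 and 7.23 in A549 in discodermolide, and 7.71, 7.12, 7.27 and 7.45 in A549 in DMSO. Its AD32 difference from A549 in DMSO was 0.64 (limma adjusted p = 0.170). It was 0.81 (adjusted p = 0.0377) with AD32 replicate 3 and A549 DMSO replicate 1 both left out. That setting was added after seeing the data and removes the DMSO array with the highest ARRDC1 level. ARRDC5 was not analysed here as a single gene.

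TXN encodes thioredoxin, the redox protein that TXNIP holds. Its level was 11.67 on AD32 4E-BP1, 11.32, 11.06 and 11.83 in AD32, 11.39 and 11.87 in A549 in discodermolide, and 10.52, 11.59, 11.74 and 11.73 in A549 in DMSO. All groups overlapped, and A549 DMSO replicate 1 was the lowest array. The AD32 mean was 0.01 above that of A549 in DMSO, and 0.28 below it without that array. In A549, discodermolide arrays averaged 0.24 above DMSO (SE 0.36, limma adjusted p = 0.898), and 0.05 below without A549 DMSO replicate 1. TXNRD1, the reductase that recharges thioredoxin, differed by 0.07 between AD32 and A549 in DMSO (SE 0.15, limma adjusted p = 0.896).

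MLXIPL, or ChREBP, followed TXNIP most closely among the other 6 genes. It stood at 6.26 on AD32 4E-BP1, 7.54, 7.57 and 6.72 in AD32, 6.71 and 6.54 in A549 in discodermolide, and 6.66, 6.18, 5.90 and 5.76 in A549 in DMSO. As with TXNIP, AD32 replicate 3 was the lowest AD32 array and A549 DMSO replicate 1 the highest DMSO array, and the gap between these was 0.07. The AD32 mean was 1.15 above A549 in DMSO, or 2.22-fold, and 1.43 above without AD32 replicate 3. Against A549 in discodermolide it was 0.65 above (SE 0.32, limma adjusted p = 0.387), and 0.93 above (adjusted p = 0.00601) with AD32 replicate 3 and A549 DMSO replicate 1 both left out. In A549, discodermolide arrays averaged 0.50 above DMSO (SE 0.30, limma adjusted p = 0.603), and 0.68 above (adjusted p = 0.0179) with those 2 arrays left out. Leaving them out was an alternative added after seeing the data. It removes the lowest AD32 and the highest DMSO array of this gene, so 0.00601 and 0.0179 are no support for a difference.

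MLX, the shared partner of MondoA and ChREBP, was 8.67 on AD32 4E-BP1, 8.12, 8.32 and 8.64 in AD32, 8.35 and 8.81 in A549 in discodermolide, and 8.25, 8.58, 8.91 and 8.98 in A549 in DMSO. The groups overlapped, apart from the single AD32 4E-BP1 array, which was above the AD32 arrays by 0.03 or more. MLX was 0.32 lower in AD32 than in A549 in DMSO and 0.22 lower than in A549 in discodermolide (limma adjusted p = 0.823 for the second). MLXIP, or MondoA, was 0.26 higher in AD32 than in A549 in DMSO (limma adjusted p = 0.783), and 0.53 higher in A549 in discodermolide than in DMSO (adjusted p = 0.692).

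**Figure D3:**
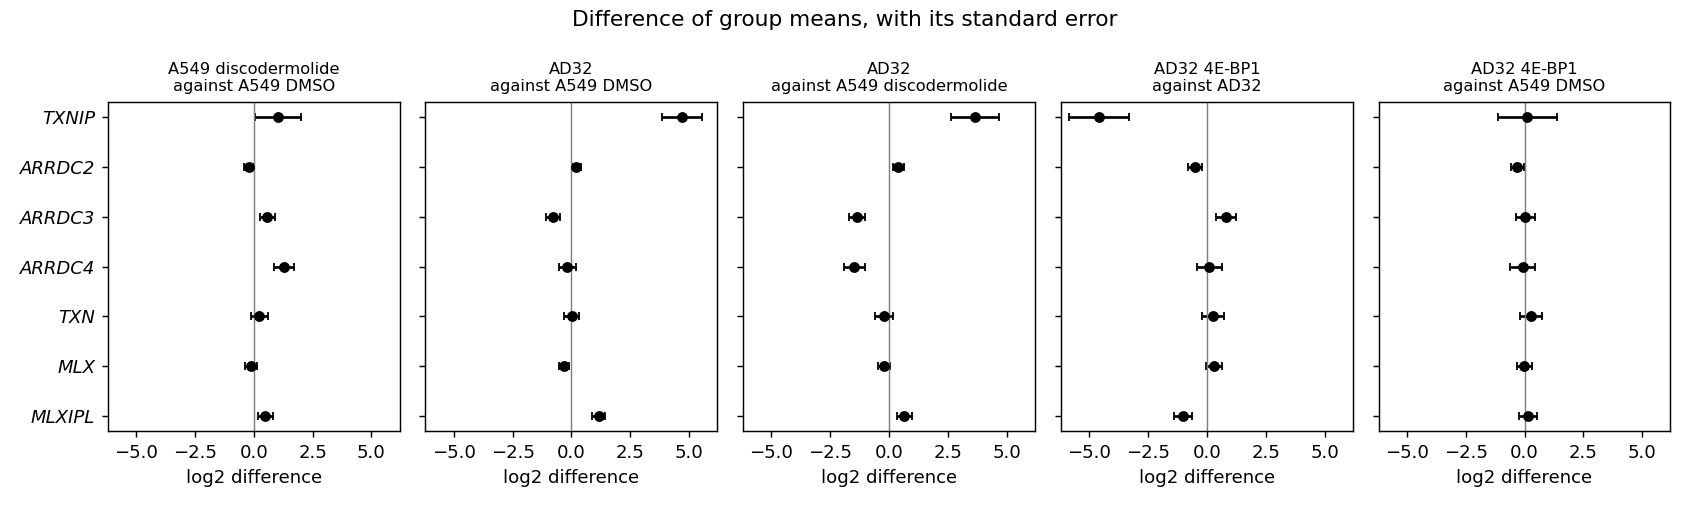
Log2 difference between group means (horizontal axis) for each of the 7 genes in each comparison, with bars of 1 SE from limma. TXNIP lies at 4.70 for AD32 against A549 in DMSO and at -4.58 for AD32 4E-BP1 against AD32, while the other 6 genes stay between -1.47 and 1.29.

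Over the 7 genes, limma called 2, TXNIP and MLXIPL, in AD32 against A549 in DMSO, where 5.72% of all genes were called. AD32 arrays did not overlap A549 DMSO arrays for 3 genes, TXNIP, MLXIPL and ARRDC3, against 15.4% of all genes. TXNIP was chosen on this contrast, so these counts test nothing and nothing is read from them. In AD32 against A549 in discodermolide, 0 of the 6 genes other than TXNIP were called, with 3.74% of all genes called. AD32 arrays did not overlap discodermolide arrays for 5 of the 7 genes, TXNIP included, against 32.3% of all genes. The 6 genes other than TXNIP had limma adjusted p-values between 0.0655 and 0.896.

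AD32 4E-BP1, compared with AD32, rests on 1 array, whose spread was taken to be that of the remaining groups. MLXIPL was 1.01 lower (SE 0.40, limma adjusted p = 0.463), ARRDC2 0.51 lower (adjusted p = 0.666) and ARRDC3 0.82 higher (adjusted p = 0.631). Each of these 3 differences ran opposite to that of AD32 over A549 in DMSO, with which it shares the AD32 arrays. Limma called 0 of the 6 genes other than TXNIP, with 0.919% of all genes called. The AD32 4E-BP1 array lay outside the AD32 range for 5 of the 7 genes, against 51.6% of all genes. The MLXIPL difference was -1.29 with AD32 replicate 3 and A549 DMSO replicate 1 both left out. That setting was added after seeing the data and removes the AD32 array with the lowest MLXIPL level. Against A549 in DMSO, TXNIP on the AD32 4E-BP1 array was 0.12 higher (SE 1.25, limma adjusted p = 1.00), and that array lay outside the A549 DMSO range for 0 of the 7 genes, against 31% of all genes. In that comparison limma called 0% of all genes, and 208 had an unadjusted p under 0.05.

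Glucose uptake, the process that TXNIP is known to restrain, was next examined in AD32 against A549 in DMSO. Of 13 measured genes of glucose uptake and phosphorylation, limma called 0 higher and 2 lower, against 5.72% of all genes called either way. The median difference was -0.11, against 0.01 over all genes, with 3 genes higher and 10 lower whether called or not. HK1, a hexokinase that phosphorylates glucose, was 6.34, 6.40 and 6.05 in AD32, against 7.51, 7.47, 7.26 and 7.33 in A549 in DMSO, a 2.19-fold fall (limma adjusted p = 0.00273). SLC2A12, a glucose transporter, was 4.999, 4.88 and 4.83 in AD32, against 9.55, 8.13, 7.42 and 7.48 in A549 in DMSO, a 9.48-fold fall (limma adjusted p = 0.00430). Neither gene overlapped between the groups, and the AD32 levels of SLC2A12 were close to the lower quartile of the arrays. On the AD32 4E-BP1 array, in DMSO, HK1 was 7.25 and SLC2A12 was 7.90, both above every AD32 array. HK1 and SLC2A12 kept their calls under every alternative run for this comparison. Both were also lower in AD32 than in A549 in discodermolide, with differences of -1.04 (limma adjusted p = 0.0118) and -3.82 (adjusted p = 0.00609). These 2 calls were lost without either discodermolide array, with adjusted p-values of 0.141 and 0.0559 for HK1 and 0.0746 and 0.0624 for SLC2A12. That of HK1 was also lost in the compared groups alone (0.0599).

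Of 15 measured targets of MondoA and ChREBP, TXNIP, chosen on this contrast, was higher in AD32 than in A549 in DMSO and SCD fell, and the other 13 were not called, against 5.72% of all genes called. The median difference over these targets was -0.02. SCD, the stearoyl-CoA desaturase of fat synthesis, fell 2.55-fold (limma adjusted p = 0.0196). That call was lost without AD32 replicate 1 or 2, or without A549 DMSO replicate 3 or 4 (adjusted p from 0.0621 to 0.0878), or with those 2 DMSO arrays averaged (0.0650). ACLY, which makes cytosolic acetyl-CoA for fat synthesis, was 1.28 lower (limma adjusted p = 0.0600). In the MLX and MAX network, limma called 0 of the 11 genes other than MLX and MLXIPL, with a median of 0.18.

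Among ligases of the NEDD4 family, the partners of alpha-arrestins, 1 of 9 rose and 1 fell in AD32 against A549 in DMSO, against 5.72% of all genes called, with a median of 0.10. NEDD4L, a ligase known for its action on sodium channels, was 9.52, 9.95 and 9.34 in AD32, against 7.87, 8.53, 8.38 and 8.36 in A549 in DMSO, a 2.49-fold rise (limma adjusted p = 0.00618). Its arrays did not overlap, and the call held under every alternative run for this comparison. Against A549 in discodermolide NEDD4L was not called, with means of 9.60 in AD32 and 8.65 in A549. On the AD32 4E-BP1 array, in DMSO, it was 8.46, below every AD32 array. WWP1 fell by 0.59 on the log2 scale (limma adjusted p = 0.0212), a call lost without AD32 replicate 2 or A549 DMSO replicate 3 or 4 (adjusted p from 0.0686 to 0.0806). It was also lost with those 2 DMSO arrays averaged (0.0701) and after quantile normalization (0.0592). WWP1 was 0.76 lower in AD32 than in A549 in discodermolide (adjusted p = 0.0201), lost without either discodermolide array (adjusted p 0.187 and 0.127) or AD32 replicate 2 (0.0570), after quantile normalization (0.0629) and in the compared groups alone (0.0791).

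In the thioredoxin and peroxiredoxin system, 1 of 15 genes fell in AD32 against A549 in DMSO and 0 rose, a share near the 5.72% of all genes called, with a median of -0.04. PRDX3, the mitochondrial peroxiredoxin, fell 2.39-fold (limma adjusted p = 0.0212), and the call was lost without AD32 replicate 1 or 2, or A549 DMSO replicate 3 or 4 (adjusted p from 0.0672 to 0.0939), or with those 2 DMSO arrays averaged (0.0685). Of 7 genes of the NLRP3 inflammasome, to which TXNIP has been linked, GSDMD, the pore-forming gasdermin, fell 2.01-fold (limma adjusted p = 0.0345). Its call was lost without any 1 of the AD32 or A549 discodermolide arrays, or of A549 DMSO replicates 2, 3 and 4 (adjusted p from 0.0523 to 0.124), with DMSO replicates 3 and 4 averaged (0.0736) and in the compared groups alone (0.0540). The other 6 inflammasome genes were not called, against 5.72% of all genes, and the median was -0.07. CASP1, the inflammasome protease, was 1.38 lower in AD32 than in A549 in discodermolide (limma adjusted p = 0.0164), lost without either discodermolide array (adjusted p 0.0635 and 0.187) and in the compared groups alone (0.0509). Its means of 3.35 and 4.73 were both below the lower quartile of every array.

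FOXO factors and glucocorticoids can also raise TXNIP in other settings. Of 15 FOXO target genes, 2 rose and 0 fell in AD32 against A549 in DMSO, against 5.72% of all genes called, with a median of 0.35. The median was larger, 0.52, in A549 in discodermolide against DMSO, with 11 genes higher, 4 lower and 0 called (0.372% of all genes). In AD32 against A549 in discodermolide the median was -0.39, with 6 higher, 9 lower and 0 called (3.74% of all genes). SESN3, a sestrin of the stress response, was 4.35 on AD32 4E-BP1, 7.81, 8.38 and 7.98 in AD32, 5.50 and 6.27 in A549 in discodermolide, and 6.83, 6.41, 5.06 and 5.18 in A549 in DMSO. Its 3 AD32 arrays were close together and above every other array, including replicate 3, in which TXNIP was lower. The rise over A549 in DMSO was 4.56-fold (limma adjusted p = 0.0208), lost without AD32 replicate 1 or 2, or A549 DMSO replicate 3 or 4 (adjusted p from 0.0564 to 0.0932), or with those 2 DMSO arrays averaged (0.0599). On AD32 4E-BP1 it was 13.1-fold lower than in AD32 (adjusted p = 0.0400), a call lost without AD32 replicate 1 or 2, A549 DMSO replicate 2 or 4, or either discodermolide array (adjusted p from 0.0543 to 0.125), with DMSO replicates 3 and 4 averaged (0.0516) and in the compared groups alone (0.0596). Its level on the AD32 4E-BP1 array was below the lower quartile of every array, so signal above background was not shown there. CITED2, a transcriptional co-regulator, rose 2.43-fold over A549 in DMSO (adjusted p = 0.0118), lost without AD32 replicate 1 (0.0534) or 2 (0.0571).

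Of 11 glucocorticoid-induced genes, 1 rose and 0 fell in AD32 against A549 in DMSO, against 5.72% of all genes called, with a median of -0.01. NFKBIA, the inhibitor of NF-kappaB, rose 2.08-fold (limma adjusted p = 0.0184), lost without AD32 replicate 2 or A549 DMSO replicate 3 or 4 (adjusted p from 0.0545 to 0.0797), or with those 2 DMSO arrays averaged (0.0578). CEBPD, a transcription factor, was 0.72 lower in AD32 than in A549 in discodermolide (adjusted p = 0.0330), lost without either discodermolide array (adjusted p 0.246 and 0.186), AD32 replicate 2 (0.0825) or A549 DMSO replicate 2, 3 or 4 (0.0542 to 0.0708). It was also lost with DMSO replicates 3 and 4 averaged (0.0673), after quantile normalization (0.0760) and in the compared groups alone (0.116). In A549 in discodermolide against DMSO, limma called 0 genes in each of these lists. The 20 G2/M genes were all lower there, with a median of -2.45, and all lower in AD32 than in A549 in DMSO, with a median of -2.26, and 0 were called in either comparison. With AD32 replicate 3 and A549 DMSO replicate 1 both left out, all 20 were called lower in both, with medians of -3.30 and -4.53. In that setting 14.5% and 28.3% of all genes were called. These 2 arrays were singled out by these same genes after seeing the data, so calls made without them test nothing. The count was 11 in AD32 against A549 in DMSO without AD32 replicate 3 alone, where 10.75% of all genes were called. It was 3 without A549 DMSO replicate 1 alone, where 11.8% were. With array weights all 20 were called lower in both comparisons.

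**Figure D4:**
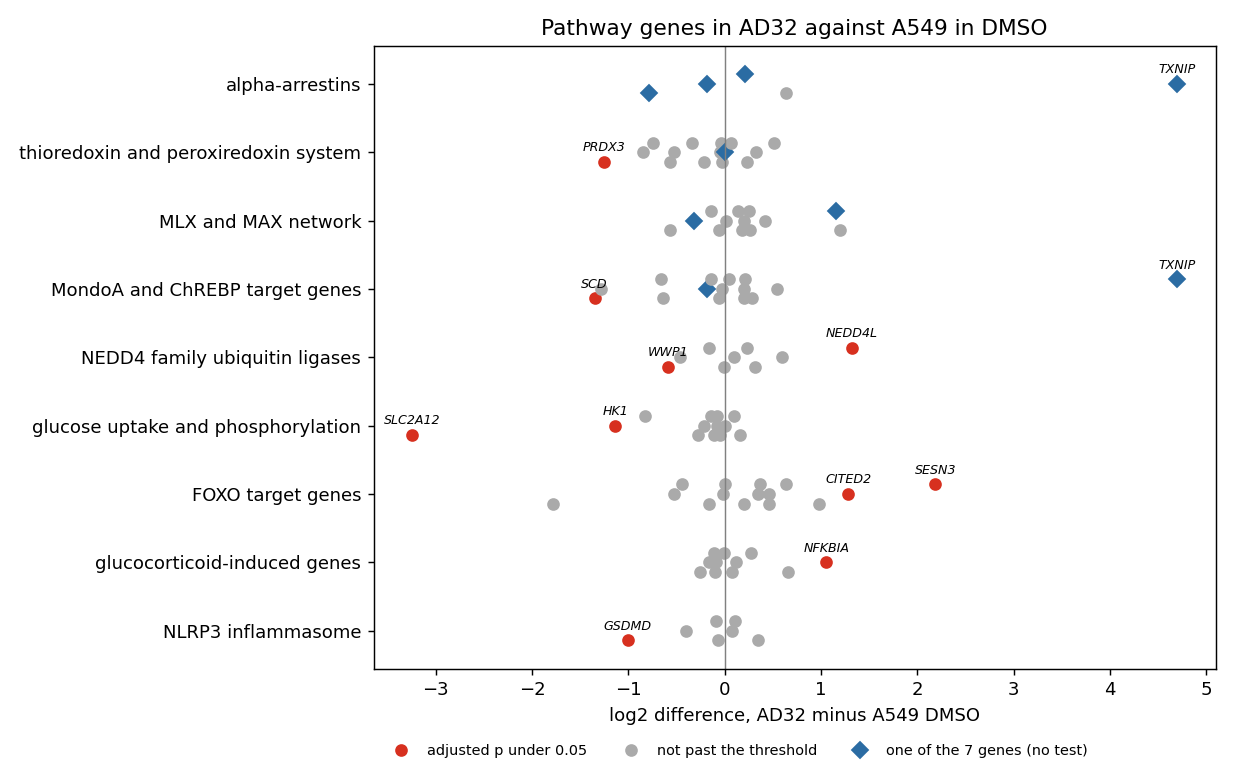
Log2 difference of AD32 over A549 in DMSO (horizontal axis) for each measured gene of the listed pathways (rows), with genes of adjusted p under 0.05 in red and the 7 genes, given with no test, as blue diamonds. HK1 and SLC2A12 are the called genes of glucose uptake and NEDD4L and WWP1 those of the NEDD4 ligases, at -1.13, -3.24, 1.32 and -0.59.

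Over the 10 arrays, TXNIP had a Pearson correlation of 0.93 with MLXIPL, 0.54 with ARRDC2, -0.20 with ARRDC4, -0.31 with TXN, -0.64 with MLX and -0.69 with ARRDC3. These describe arrays that share groups, and the AD32 arrays carry most of the range. Among the 1367 genes whose level spanned 2 or more on the log2 scale, the 10 most like TXNIP were BHLHE41, AOX1, SLC25A45, ARHGEF28, CMKLR2, GCNT4, LCN2, ITGB8, RIOK3 and IGFBP1, with correlations from 0.973 to 0.995. BHLHE41, a circadian repressor, read 6.13 on AD32 4E-BP1, 7.82, 8.04 and 6.62 in AD32, 6.37 and 6.43 in A549 in discodermolide, and 6.17, 5.95, 5.94 and 5.76 in A549 in DMSO. LCN2, a secreted iron-siderophore carrier, was 6.31 on AD32 4E-BP1, 12.85, 11.95 and 7.25 in AD32, 6.45 and 7.16 in A549 in discodermolide, and 6.47, 5.54, 6.36 and 6.33 in A549 in DMSO. In both genes, as in TXNIP, AD32 replicates 1 and 2 were high, and replicate 3 was lower but still above every array of the other groups.

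The 5 genes most opposed to TXNIP were ACLY, PFKFB3, FGFR4, CTPS1 and ANXA6, with correlations between -0.982 and -0.975. ACLY was 12.35 on AD32 4E-BP1, 10.62, 10.47 and 11.94 in AD32, 12.13 and 11.90 in A549 in discodermolide, and 11.86, 12.48, 12.38 and 12.44 in A549 in DMSO. PFKFB3, which makes the activator of the glycolytic enzyme phosphofructokinase, was 10.64 on AD32 4E-BP1, 8.77, 8.52 and 10.06 in AD32, 10.41 and 10.24 in A549 in discodermolide, and 10.28, 10.84, 10.37 and 10.43 in A549 in DMSO. Both were low in AD32 replicates 1 and 2 and near the other groups in replicate 3.

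**Figure D5:**
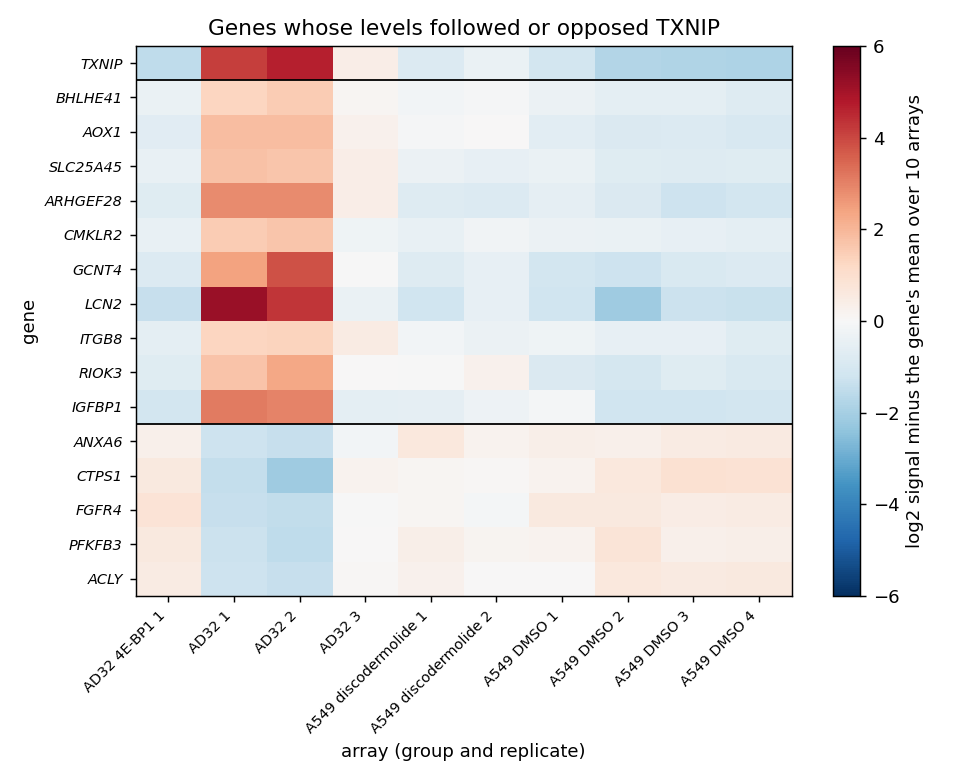
Log2 signal minus the gene's mean over the 10 arrays (colour) on each array (columns) for TXNIP, the 10 genes most like it and the 5 most opposed (rows). AD32 replicates 1 and 2 carry the strongest colours, and AD32 replicate 3 is nearer to the A549 arrays, as for TXNIP at 10.88, 11.39 and 7.14.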

How the data were processed

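Total RNA of 10 samples was measured on Affymetrix arrays. The authors deposited log2 signals; the submitters' processing notes name Affymetrix Expression Console, and no version or setting is given in the sources used here. The log2 scale was judged from the values. Of 24308 probe sets, the platform annotation gave 1 gene for 19262, several for 1720 and no name here for 3326. Probe sets with 1 gene gave 18279 genes; where a gene had more than 1 probe set (740 genes), that with the highest mean was used. Each of the 7 genes had 1 probe set.

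Groups came from the cell lines and treatments of the labels. Limma 3.58.1 in R 4.3.3 (lmFit, eBayes) was fitted to all genes and arrays, with 4 groups and 6 residual degrees of freedom, two-sided, with Benjamini-Hochberg adjustment and a threshold of 0.05. It was checked on simulated data. Array numbers limit the precision. A549 DMSO replicates 3 and 4 were the closest pair of arrays within any group (Pearson r of 0.997 over genes) and were kept as 2 arrays. Descriptions and the promoter search used Python 3.11.15.

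The genes, pathway lists and tests were chosen with earlier results of these data known. Named were the 7 genes; ARRDC1, ARRDC5, MLXIP, TXNRD1 and MKI67; up to 4 called genes per list and comparison, by smallest p; and the 10 genes most like and 5 least like TXNIP. Alternatives were quantile normalization, removal of the lowest 33.3% of genes, array weights, mean of probe sets, averaging of A549 DMSO replicates 3 and 4, the replicate number as a block, and each array left out. Leaving out A549 DMSO replicate 1 with AD32 replicate 3, and fitting the compared groups alone, were added after seeing the data.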

Additional observations from a re-analysis of the deposited data

Results flagged for a closer look

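In A549 in DMSO, the level of TXNIP on replicate 1 (5.61) lay above the other 3 arrays (4.90 to 5.002) by a gap of 0.856 of the group's range. TXN on the same array (10.52) lay below the others (11.59 to 11.74) by a gap of 0.874 of the range. Both exceed Dixon's 95% limit of 0.829 for 4 samples, which chance passes in about 1 in 20 groups, and 7 genes were examined in this group. The same array had a G2/M mean of 6.84, against 9.99 to 10.10 on the other DMSO arrays; its part in these levels was not tested.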

How the results depend on the processing

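Counts of called genes depended most on the settings. In A549 in discodermolide against DMSO (68 called), the count was 36 without the lowest 33.3% of genes, 4573 with array weights, 15 with A549 DMSO replicates 3 and 4 averaged, 4 with the replicate block, 2656 with A549 DMSO replicate 1 and AD32 replicate 3 both left out, 106 in the compared groups alone, and 8 to 643 with single arrays left out. For AD32 against A549 in DMSO (1045), these were 4215 with weights, 525 averaged, 650 with the block, 5164 with both left out, and 512 to 2164 with single arrays left out. For AD32 against A549 in discodermolide (683), they were 1869 with weights, 2769 with both left out, 353 in the compared groups alone, and 132 to 1215 with single arrays left out. For AD32 4E-BP1 against AD32 (168), they were 107 without the lowest 33.3%, 1282 with weights, 99 averaged, 3005 with both left out, 13 in the compared groups alone, and 99 to 656 with single arrays left out. For AD32 4E-BP1 against A549 in DMSO (0), the count was 3 with weights. With array weights, 59.2% of calls in A549 in discodermolide against DMSO were higher, against 94.1% without, and 48.3% against 61.6% in AD32 against A549 in DMSO. The causes were not tested.

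TXNIP kept its direction in all 5 comparisons under every alternative run, between 3.905 and 6.198 for AD32 over A549 in DMSO. It was chosen for its high AD32 level, so a kept direction in comparisons that use the AD32 arrays tests nothing. For AD32 4E-BP1 against A549 in DMSO the difference was 0.12 (SE 1.25), so nothing is read from its sign. In A549 in discodermolide against DMSO the TXNIP difference was 1.21 with both arrays left out (adjusted p = 0.00233) and 0.24 with the replicate block. Leaving both out removes the DMSO array with the highest TXNIP level, so that p is no support for a difference. Of 576 values of the 7 genes under the alternatives, 23 changed sign, all of uncalled values of TXN, MLX, ARRDC3 or ARRDC4, and 13 passed the threshold that the reported value missed. MKI67, one of the G2/M genes, averaged 7.10 in AD32 and 6.90 in A549 in discodermolide. With both arrays left out its difference was -1.21 (limma adjusted p = 0.0108), of opposite sign. Those arrays were singled out by the G2/M genes, so that p tests nothing. Replicate numbers did not pair arrays: deviations of same-numbered AD32 and A549 DMSO arrays correlated at 0.68, -0.26 and 0.41. Under the replicate block, WWP1 lost its calls in AD32 against A549 in DMSO and in discodermolide (adjusted p 0.0899 and 0.0674), and CEBPD and CASP1 theirs in AD32 against A549 in discodermolide (0.0762 and 0.0742). No block could be fitted for AD32 4E-BP1, which has no number. Signal over background is not given, which limits ARRDC4 most.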
